A study of Homo sapiens with 18 samples.

Results

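NRAS, HRAS, RRAS, RRAS2 and MRAS encode 5 related small GTPases of the RAS family. Their rows were found in the expression table by matching Ensembl gene IDs to these symbols, which gave 1 row for each of the 5 genes among 60658 IDs. All 5 passed the filter on low values, which kept 17555 IDs. The data were RNA-seq values from 18 culture plates of human leukaemia cells, 9 of the clone B11 and 9 of its parent line THP1, each with 3 plates at 0, 1 and 10 ug/ml of doxycycline, kept for 5 days in RPMI medium with fetal bovine serum.

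THP1 is an established monocytic acute myeloid leukaemia line, and its labels list NRAS G12D as heterozygous. B11 is 1 subclone of THP1. According to the labels' protocols it carries, from a lentivirus, an NRAS G12V gene that doxycycline switches on, that the guides cannot cut and that is marked by GFP. Cas9 with a puromycin marker and a pair of guides then targeted the cells' own NRAS on both sides of its start codon, and the labels list NRAS G12V as heterozygous in B11. The groups were therefore B11 at 0, 1 and 10 ug/ml, which share the transgene and the editing and differ in the inducer, and THP1 at 0, 1 and 10 ug/ml, which carry neither and received the same drug. The plates of a line came from 1 expanded culture, so p-values measure the spread between plates only, and B11 stands for 1 clone.

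RAS proteins switch between an active, GTP-bound form and an inactive, GDP-bound form. Exchange factors load GTP, GTPase activating proteins speed its hydrolysis, and the active form binds effectors such as RAF kinases. NRAS and HRAS are classical members that activating mutations often hit in cancer, RRAS and RRAS2 form the R-RAS subgroup, known for roles in integrin adhesion and, for RRAS2, in transformation, and MRAS, when active, binds SHOC2 and a protein phosphatase 1 subunit in a complex that removes an inhibitory phosphate from RAF.

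On GRCh38, GENCODE release 29 lists the genes at chr1:114704469-114716894 for NRAS, chr11:532242-537287 for HRAS, chr19:49635292-49640201 for RRAS, chr11:14277926-14364506 for RRAS2 and chr3:138347648-138405534 for MRAS. None of them overlaps another annotated gene. NRAS has 1 transcript, of 4449 bases with 189 codons, while HRAS has 11 transcripts of 167 to 1233 bases, RRAS has 2 of 634 to 1044 bases, RRAS2 has 11 of 497 to 2034 bases and MRAS has 11 of 271 to 4538 bases. The table gives 1 value per gene, so a shift between transcripts of different length could not be told apart from a change in level. For NRAS, transcripts of the edited gene and of the inducible transgene fall under 1 value. The sources used here do not say what the transgene transcript holds beside the coding sequence. Values are scaled by annotated length, so a transgene transcript of another length would not count like one of the edited gene. The NRAS changes below therefore do not give the size of the induction.

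Levels are in FPKM, fragments per kilobase of transcript scaled for library depth, which sets genes of different length on one scale. The 3 plates of a group are lettered A, B and C, and their values are given in that order. The depth of the libraries, estimated from the step between low values, was 11.1 to 16 M fragments. Of 10 myeloid and monocytic marker genes, 9 or 10 were at 1 FPKM or more in every library of each group. Markers of other blood lineages were low in all libraries, with CD3E, MS4A1, HBB and PF4 listed at 0, except for NKG7 in the list for T and NK cells, whose 4 genes summed to 24.3 to 82.9 FPKM. The myeloid markers together summed to 4254 to 5514 FPKM in B11 at 0 ug/ml, 1659 to 1703 at 1 ug/ml and 1366 to 1465 at 10 ug/ml, and to 1391 to 1838 FPKM in the THP1 libraries. LYZ, at up to 3075 FPKM, and CD68, at up to 1558 FPKM, make up most of the highest sums, and no other marker passed 305.4 FPKM. This sum therefore moved with the groups compared here, which does not show that each marker did. Its part in the results was not tested. In B11 at 1 ug/ml, 1 ID without a gene name took 6.51% of the FPKM sum of library B and 3.76% of that of library C, against 0% in the others, so results that use this group were also computed without both libraries.

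HRAS had the highest level of the 5 genes and RRAS2 the lowest in each of the 18 libraries. Over all libraries HRAS averaged 72.4 FPKM, NRAS 23.9, RRAS 21.9, MRAS 16.3 and RRAS2 4.56 FPKM. The order of the other 3 genes varied between groups. NRAS was above RRAS in 0 of 3 B11 libraries at 0 ug/ml, in 1 of 3 at 1 ug/ml and in 1 of 3 at 10 ug/ml, and in all 9 THP1 libraries. RRAS was above MRAS in all 9 B11 libraries, and in THP1 in 3 of 3 libraries at 0 ug/ml, 1 of 3 at 1 ug/ml and 0 of 3 at 10 ug/ml. NRAS and RRAS could not be ordered in B11 with 1 or 10 ug/ml, where their libraries overlapped.

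**Figure D1:**
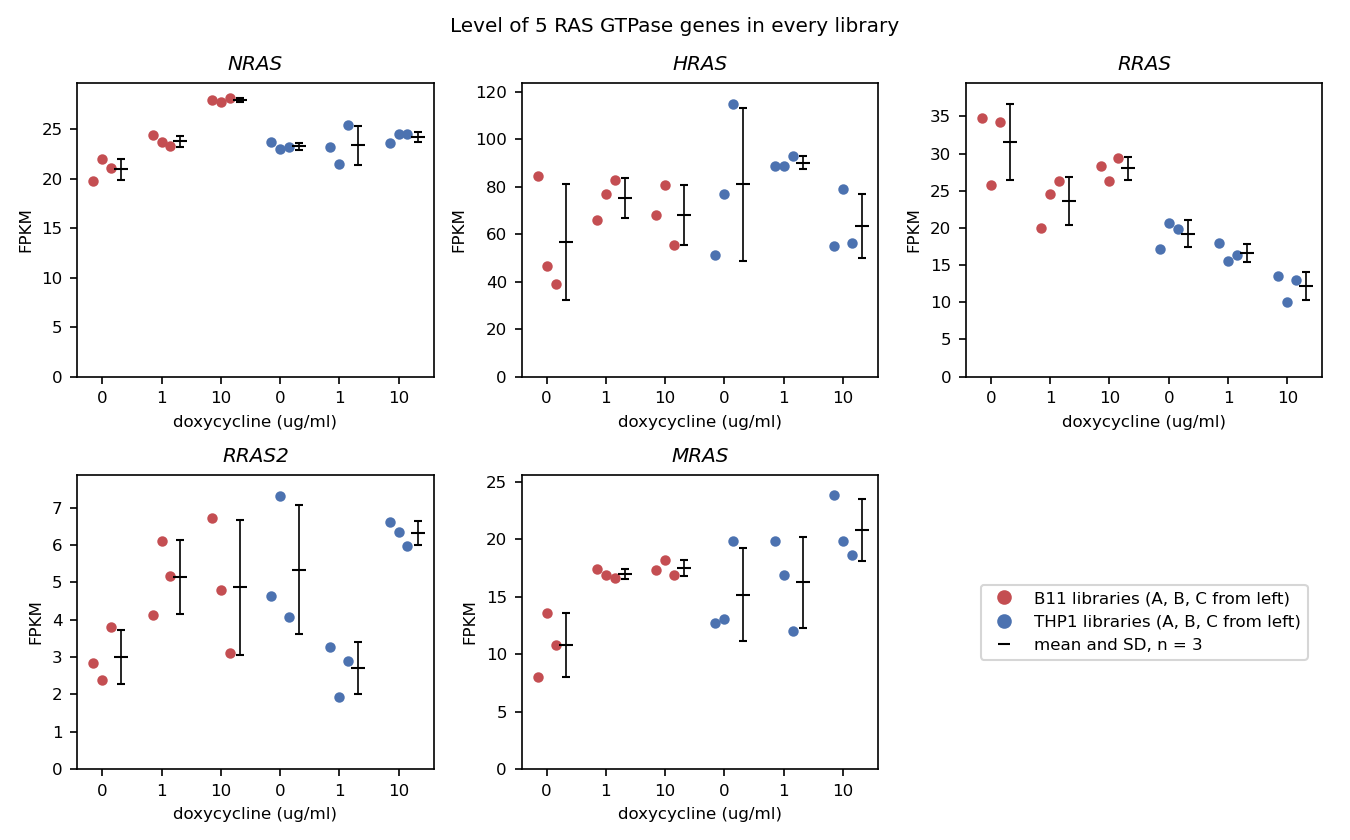
Level of each gene in FPKM (vertical axes, from 0, with their own scale) in the 18 libraries by doxycycline dose in ug/ml, B11 in red and THP1 in blue. Points are libraries A, B and C, and bars are the mean and SD of 3; the NRAS points at 10 ug/ml in B11, between 27.73 and 28.16 FPKM, lie above all other NRAS points, and the RRAS points of B11 lie above those of THP1 at each dose.

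Tests were run on log2(FPKM + 1) with limma across all 17555 genes, with Benjamini-Hochberg adjustment, and a gene was called at an adjusted p under 0.05. Changes below are differences on that scale with their standard error (SE), and adjusted p-values are from this fit. In bulk RNA a change in level cannot be told apart from a change in the share of cells that express the gene. The share of all genes called sets what a count among 5 genes can mean. Between B11 at 10 and 0 ug/ml, 42.8% of all genes were called, and 2 of the 5 RAS genes. Between B11 at 1 and 0 ug/ml the figures were 37.1% and 2 of 5, and between B11 at 10 and 1 ug/ml they were 12.8% and 1 of 5. In THP1, 1.02% of genes were called between 10 and 0 ug/ml, with 1 of the 5 RAS genes among them. Between 1 and 0 ug/ml limma called 0.0114% of genes in THP1 and 0 of the 5, with 1 of the 5 at an unadjusted p under 0.05, and between 10 and 1 ug/ml it called 0.296% and 0 of the 5, with 2 at an unadjusted p under 0.05. Between B11 and THP1, 47.1% of genes were called at 0 ug/ml, 29.8% at 1 ug/ml and 32.4% at 10 ug/ml, with 2 of the 5 RAS genes at each dose. The difference of the dose change between the lines was called for 29.8% of genes at 10 against 0 ug/ml with 1 of the 5, for 25.9% at 1 against 0 ug/ml with 1 of the 5, and for 4.64% at 10 against 1 ug/ml with 0 of the 5 and 2 at an unadjusted p under 0.05. The counts of RAS genes in the B11 dose comparisons and between the lines lie near these shares.

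NRAS, the gene edited in B11 and supplied again by the transgene, was higher in B11 at 10 ug/ml than in B11 at 0 ug/ml, and doxycycline in THP1 gave no called change. In B11, NRAS was at 19.8, 22.0 and 21.1 FPKM without doxycycline, at 24.4, 23.7 and 23.3 FPKM at 1 ug/ml and at 28.0, 27.7 and 28.2 FPKM at 10 ug/ml. In THP1 it was at 23.7, 23.0 and 23.2 FPKM without doxycycline, at 23.2, 21.5 and 25.5 FPKM at 1 ug/ml and at 23.7, 24.5 and 24.6 FPKM at 10 ug/ml. The 3 B11 doses did not overlap one another, whereas the 3 THP1 doses did. In B11 the libraries of 50.6% of all genes did not overlap at 10 against 0 ug/ml, of 47.5% at 1 against 0 ug/ml and of 34.0% at 10 against 1 ug/ml.

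The NRAS mean was 28.0 ± 0.219 FPKM in B11 at 10 ug/ml and 21.0 ± 1.09 FPKM in B11 at 0 ug/ml (SD, n = 3 each), a change of 0.40 ± 0.07 (SE, adjusted p = 0.000276). It kept its call under all 28 alternatives. At 1 ug/ml B11 averaged 23.8 ± 0.579 FPKM, a change of 0.18 from 0 ug/ml that did not pass the test (adjusted p = 0.0607). Between 10 and 1 ug/ml the change was 0.22 (adjusted p = 0.0488), a call that was lost under 21 of 28 alternatives. In THP1 the change at 10 against 0 ug/ml was 0.06, with a 95% interval from -0.09 to 0.21 (adjusted p = 0.855). The NRAS change at 10 against 0 ug/ml was larger in B11 than in THP1 by 0.35 ± 0.10 (SE, adjusted p = 0.0159), and this difference was also called under all 28 alternatives.

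Between the lines, NRAS in B11 without doxycycline averaged 21.0 ± 1.09 FPKM, against 23.3 ± 0.349 FPKM in THP1 without doxycycline (SD, n = 3 each). All 3 B11 libraries were below all 3 THP1 libraries, which held in one direction or the other for 53.3% of all genes, and the difference of -0.15 did not pass (adjusted p = 0.0994). With TPM, values divided by their sum in each library, it was -0.28 and passed (adjusted p = 0.0132). The FPKM sums were 1.159 to 1.201 M in untreated B11 and 1.049 to 1.091 M in untreated THP1, so this result depends on the scaling. At 1 ug/ml the lines overlapped, with a difference of 0.03 and an interval from -0.12 to 0.18. At 10 ug/ml NRAS was higher in B11, with 28.0 ± 0.219 FPKM against 24.2 ± 0.505 FPKM in THP1, a difference of 0.20 (adjusted p = 0.0419) whose call was lost under 18 of 28 alternatives. With TPM the difference at 10 ug/ml was 0.13 (adjusted p = 0.273). NRAS varied little between plates: the SD within groups was 0.0594 on the log2 scale, at percentile 0.833 among 2401 genes of like level.

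HRAS, the most abundant of the 5, had no call in any of the 12 comparisons, and its plates differed more than those of most genes. In B11 it was at 84.6, 46.5 and 38.8 FPKM without doxycycline, at 65.9, 76.7 and 82.9 FPKM at 1 ug/ml and at 67.9, 80.7 and 55.3 FPKM at 10 ug/ml. In THP1 it was at 51.1, 76.7 and 115 FPKM without doxycycline, at 88.5, 88.7 and 93.1 FPKM at 1 ug/ml and at 55.0, 78.8 and 56.4 FPKM at 10 ug/ml. The B11 doses overlapped one another, and in THP1 the plates at 1 ug/ml were tight while the plates at 0 ug/ml covered more than the range of the other doses.

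The coefficient of variation of HRAS was 43.3% in B11 at 0 ug/ml, 39.7% in THP1 at 0 ug/ml and 2.87% in THP1 at 1 ug/ml. Its SD within groups was 0.376 on the log2 scale, at percentile 96.8 among 1484 genes of like level, while counting error at the estimated depth was 2.42% to 4.78% per kilobase of transcript. The change in B11 at 10 against 0 ug/ml was 0.32 with an interval from -0.28 to 0.93 (adjusted p = 0.391), and in THP1 it was -0.29 with an interval from -0.89 to 0.31 (adjusted p = 0.792). With 1 library left out, the B11 value ranged from 0.10 without library C at 0 ug/ml to 0.65 without library A at 0 ug/ml. The THP1 value ranged from -0.58 without library A at 0 ug/ml to -0.0028 without library C at 0 ug/ml. These intervals do not show that HRAS was equal between the groups. HRAS made up 46.2 ± 4.76% of the summed FPKM of the 5 genes in B11 at 10 ug/ml and 44.8 ± 10.6% in B11 at 0 ug/ml, and 49.6 ± 6.08% in THP1 at 10 ug/ml and 54.8 ± 8.20% in THP1 at 0 ug/ml (SD, n = 3 each). The HRAS value therefore sets much of that sum, which averaged 146 ± 12.5 FPKM in B11 at 10 ug/ml and 123 ± 23.5 FPKM in B11 at 0 ug/ml.

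RRAS, an R-RAS GTPase known for its part in integrin activation, was higher in B11 than in THP1 at every dose. In B11 it was at 34.8, 25.7 and 34.3 FPKM without doxycycline, at 20.0, 24.6 and 26.3 FPKM at 1 ug/ml and at 28.3, 26.3 and 29.4 FPKM at 10 ug/ml. In THP1 it was at 17.2, 20.7 and 19.9 FPKM without doxycycline, at 17.95, 15.5 and 16.3 FPKM at 1 ug/ml and at 13.5, 9.98 and 13 FPKM at 10 ug/ml. At each dose the lowest B11 library lay above the highest THP1 library at that dose, and the THP1 libraries at 10 ug/ml lay below those of the other THP1 doses.

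At 0 ug/ml RRAS averaged 31.6 ± 5.11 FPKM in B11 and 19.2 ± 1.84 FPKM in THP1 (SD, n = 3 each), a difference of 0.68 ± 0.14 (SE, adjusted p = 0.000979). At 1 ug/ml the means were 23.6 ± 3.26 FPKM in B11 and 16.6 ± 1.23 FPKM in THP1, a difference of 0.48 (adjusted p = 0.0178). That call was lost under 4 of 28 alternatives, among them the fit without B11 libraries B and C at 1 ug/ml, with 0.26 and an adjusted p of 0.434. At 10 ug/ml the means were 28.0 ± 1.57 FPKM in B11 and 12.2 ± 1.92 FPKM in THP1, a difference of 1.15 ± 0.14 (SE, adjusted p = 1.69e-05). The calls at 0 and 10 ug/ml were kept under all 28 alternatives. Libraries of the lines did not overlap for 53.3%, 43.5% and 44.5% of all genes at 0, 1 and 10 ug/ml.

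Within THP1, RRAS fell by 0.63 on the log2 scale at 10 against 0 ug/ml (adjusted p = 0.0492), next to the threshold, and the call was lost under 24 of 28 alternatives, with adjusted p between 0.0254 and 0.255. In this comparison the libraries of 15.9% of all genes did not overlap. At 10 against 1 ug/ml in THP1 the RRAS change of -0.43 did not pass (adjusted p = 0.283), and the libraries of 13.4% of all genes did not overlap. Within B11, RRAS fell by 0.40 on the log2 scale at 1 against 0 ug/ml (adjusted p = 0.0359), although library B at 0 ug/ml lay below library C at 1 ug/ml. That call was lost under 7 of 28 alternatives, and the change without B11 libraries B and C at 1 ug/ml was -0.62. At 10 against 0 ug/ml the B11 change was -0.16 with an interval from -0.45 to 0.14 (adjusted p = 0.406). The change at 10 against 0 ug/ml differed between B11 and THP1 by 0.47, which did not pass (adjusted p = 0.0894), so the fall in THP1 is not shown to be absent from B11. At 10 against 1 ug/ml the changes differed by 0.67, which did not pass (adjusted p = 0.0716) except without library B of B11 at 0 ug/ml (adjusted p = 0.0426).

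The ratio of RRAS to NRAS within a library, which does not depend on the scaling of that library, averaged 1.52 ± 0.308, 0.996 ± 0.160 and 1.00 ± 0.0483 in B11 at 0, 1 and 10 ug/ml. In THP1 it averaged 0.827 ± 0.0907, 0.712 ± 0.0670 and 0.503 ± 0.0857 at those doses (SD, n = 3 each). The ratio of RRAS to MRAS averaged 3.13 ± 1.22, 1.39 ± 0.224 and 1.61 ± 0.151 in B11 and 1.31 ± 0.294, 1.06 ± 0.257 and 0.589 ± 0.0990 in THP1 at 0, 1 and 10 ug/ml. Ratios to NRAS, the gene edited and supplied again in B11, were higher in every B11 library than in any THP1 library at the same dose. Ratios to MRAS were so at 0 and 10 ug/ml only. At 1 ug/ml they overlapped, with 1.15 in B11 library A and 1.36 in THP1 library C. These ratios are given as values, with no test.

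**Figure D2:**
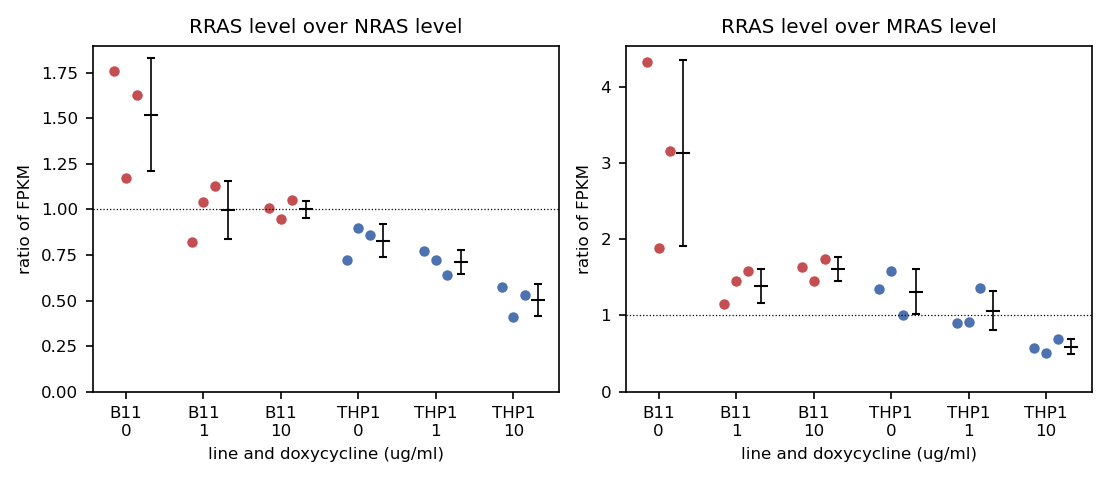
Ratio of the RRAS level to the NRAS level (left) and to the MRAS level (right) in each library, both axes from 0, by line and doxycycline dose in ug/ml, with B11 in red and THP1 in blue; bars are mean and SD of 3, and the dotted line marks equal levels. The ratio to NRAS lies at or below 0.899 in all THP1 libraries and at or above 1.17 in B11 at 0 ug/ml.

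RRAS2, the second R-RAS GTPase, also called TC21, was the least abundant member and moved differently in the lines between 0 and 1 ug/ml. In B11 it was at 2.84, 2.38 and 3.80 FPKM without doxycycline, at 4.13, 6.11 and 5.16 FPKM at 1 ug/ml and at 6.71, 4.79 and 3.10 FPKM at 10 ug/ml. In THP1 it was at 4.63, 7.30 and 4.08 FPKM without doxycycline, at 3.28, 1.92 and 2.89 FPKM at 1 ug/ml and at 6.61, 6.35 and 5.98 FPKM at 10 ug/ml. The B11 libraries at 1 ug/ml lay above those at 0 ug/ml, and the THP1 libraries at 1 ug/ml lay below those at 0 and at 10 ug/ml. Libraries did not overlap for 47.5% of all genes in that B11 comparison, and in THP1 for 10.5% at 1 against 0 ug/ml and 13.4% at 10 against 1 ug/ml.

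The RRAS2 change at 1 against 0 ug/ml was 0.62 in B11 (adjusted p = 0.0607) and -0.76 in THP1 (unadjusted p = 0.0071, adjusted p = 0.707), neither of which passed. The difference between these changes was 1.38 ± 0.34 (SE), which passed (adjusted p = 0.00802). It kept its call under 26 of 27 alternatives and lost it without B11 libraries B and C at 1 ug/ml, with 1.13 and an adjusted p of 0.0976. At 10 against 1 ug/ml the THP1 change was 1.00 (unadjusted p = 0.000982, adjusted p = 0.121), and the difference between the lines of -1.10 did not pass (adjusted p = 0.0907) except without library A of B11 at 10 ug/ml, with -1.32 (adjusted p = 0.0437). At 10 against 0 ug/ml the changes were 0.52 in B11 (adjusted p = 0.103) and 0.24 in THP1 (adjusted p = 0.808). The difference between these 10 against 0 ug/ml changes was 0.28 with an interval from -0.46 to 1.01 and did not pass (adjusted p = 0.5915).

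Between the lines, RRAS2 was lower in B11 at 0 ug/ml, with 3.01 ± 0.725 FPKM against 5.34 ± 1.72 FPKM in THP1 (SD, n = 3 each), a difference of -0.64 (adjusted p = 0.0417) that lost its call under 12 of 27 alternatives. At 1 ug/ml RRAS2 was higher in B11, with 5.13 ± 0.990 FPKM against 2.70 ± 0.699 FPKM in THP1, a difference of 0.74 (adjusted p = 0.0332) that lost its call under 7 of 27, among them the fit without B11 libraries B and C at 1 ug/ml, with 0.49. At 10 ug/ml the lines overlapped, with a difference of -0.36 (adjusted p = 0.285). RRAS2 had the fewest fragments, an estimated 24.6 to 116 per kilobase in a library, for a counting error of 9.27% to 20.2%, and its SD within groups was 0.304 on the log2 scale.

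MRAS, whose active form recruits SHOC2, was higher in B11 with doxycycline than in B11 without it. In B11 it was at 8.03, 13.6 and 10.9 FPKM without doxycycline, at 17.5, 16.9 and 16.6 FPKM at 1 ug/ml and at 17.4, 18.2 and 16.9 FPKM at 10 ug/ml. In THP1 it was at 12.7, 13.04 and 19.9 FPKM without doxycycline, at 19.9, 16.9 and 12.01 FPKM at 1 ug/ml and at 23.8, 19.9 and 18.7 FPKM at 10 ug/ml. Both treated B11 groups lay above all untreated B11 libraries, and the THP1 doses overlapped.

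MRAS averaged 17.5 ± 0.683 FPKM in B11 at 10 ug/ml and 10.8 ± 2.77 FPKM in B11 at 0 ug/ml (SD, n = 3 each), a change of 0.67 ± 0.20 (SE, adjusted p = 0.0131). Without library A of B11 at 0 ug/ml, the lowest of its group, the change was 0.49 and did not pass (adjusted p = 0.0713). At 1 ug/ml B11 averaged 17 ± 0.422 FPKM, a change of 0.63 (adjusted p = 0.0212), whose call was lost under 4 of 28 alternatives. Between 10 and 1 ug/ml the change was 0.04 with an interval from -0.39 to 0.46. In these comparisons the libraries of 50.6% of all genes at 10 against 0 ug/ml and of 47.5% at 1 against 0 ug/ml did not overlap.

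In THP1 the MRAS change at 10 against 0 ug/ml was 0.45 with an interval from 0.02 to 0.87 (unadjusted p = 0.0406, adjusted p = 0.439). The change in B11 exceeded it by 0.22 with an interval from -0.38 to 0.83 (adjusted p = 0.598), so a difference between the lines in this change was not shown. MRAS did not differ by a call between the lines at any dose. Its difference was -0.46 at 0 ug/ml (adjusted p = 0.0747), 0.09 at 1 ug/ml (adjusted p = 0.793) and -0.23 at 10 ug/ml (adjusted p = 0.420).

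**Figure D3:**
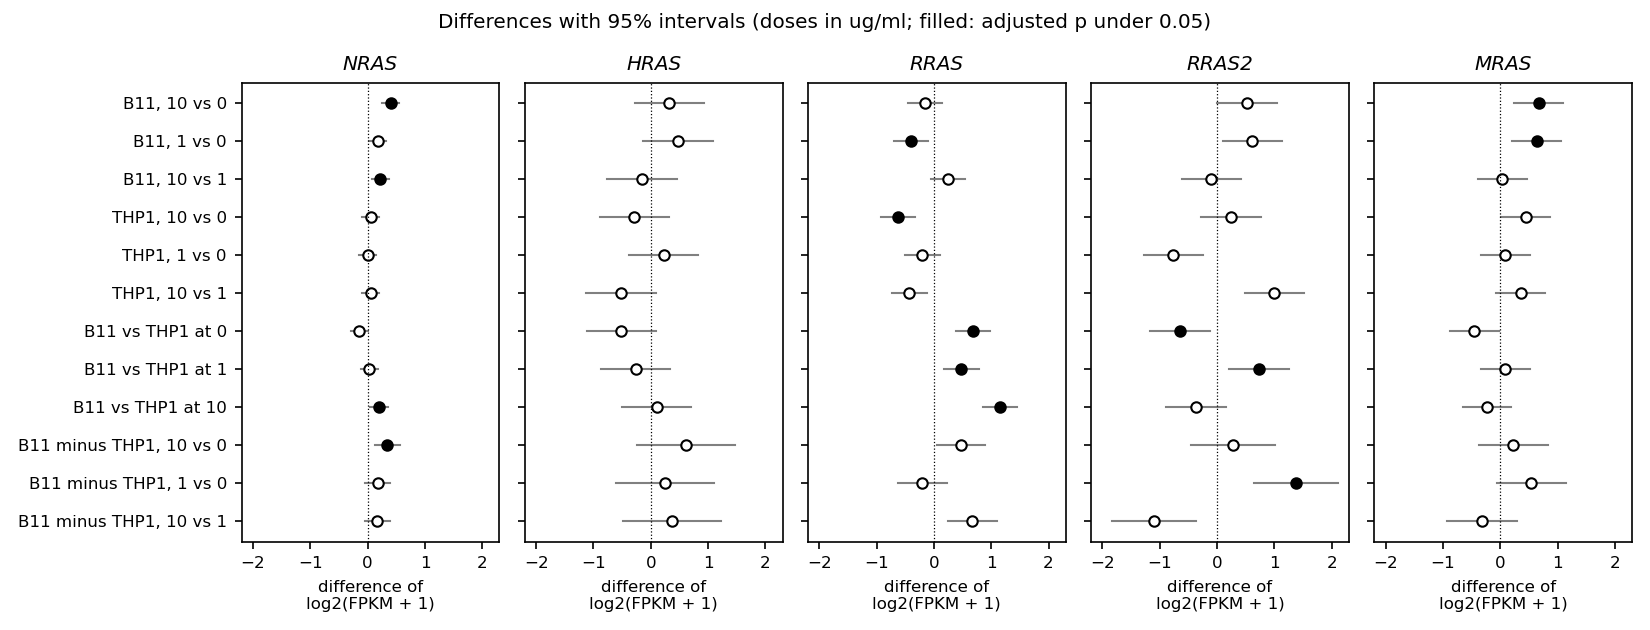
Differences of log2(FPKM + 1) (horizontal axes) of the 5 genes in the 12 comparisons (rows; doses in ug/ml), with bars for the 95% interval; filled points passed an adjusted p of 0.05 and open points did not. The bottom rows give the B11 change minus the THP1 change. Of 60 points 14 are filled, 0 of them for HRAS, and RRAS has filled points in the 3 rows that set B11 against THP1.

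Profiles most like those of the members were found by the root mean square distance between log2(FPKM + 1) values over the 18 libraries, each centred on its own mean, among 10288 named protein-coding genes. For NRAS the nearest were MAPRE1, a microtubule plus-end protein (0.0628), PPP1R15B, a subunit of the phosphatase of translation factor eIF2 (0.0763), and GTPBP6, a GTP-binding protein (0.0771), against a median of 0.366 over all candidates and 0.128 for a flat profile. MAPRE1 averaged 66.8 FPKM in B11 at 10 ug/ml and 52.8 FPKM in B11 at 0 ug/ml, and between 56.8 and 57.5 FPKM in the THP1 groups. For RRAS the nearest were CCDC57 (0.139), LRG1 (0.189) and ACADS, a short-chain acyl-CoA dehydrogenase (0.190), against a median of 0.572 and 0.464 for a flat profile. LRG1, a secreted glycoprotein of myeloid cells and liver, averaged 88.2 FPKM in B11 at 10 ug/ml and 38.0 FPKM in THP1 at 10 ug/ml.

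For MRAS the nearest were the proteasome subunit PSMB5 (0.182), the U6 recycling factor SART3 (0.195) and the ribosome assembly factor NOB1 (0.202), against a median of 0.480 and 0.346 for a flat profile. PSMB5 averaged 140.5 FPKM in B11 at 10 ug/ml and 91.2 FPKM in B11 at 0 ug/ml. For RRAS2 the nearest were NKX2-4 (0.316), AL391650.1 (0.324) and ETFDH (0.328), where a flat profile would lie at 0.437. The distances are descriptions over libraries that share groups, and HRAS, with no call, was not matched.

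The genes around the RAS cycle were taken from lists of known function. In B11 at 10 against 0 ug/ml, 8 of 11 tested exchange factors and adaptors were called, 2 higher and 6 lower, with a median change of -0.30 beside -0.02 for all genes. GAB2, an adaptor of receptor signalling, averaged 10.1 ± 1.29 FPKM in B11 at 10 ug/ml and 26.5 ± 2.34 FPKM in B11 at 0 ug/ml, a change of -1.31 (adjusted p = 2.52e-06). RASGRP4, an exchange factor of myeloid cells, averaged 16.6 ± 2.15 FPKM at 10 ug/ml and 31.0 ± 2.86 FPKM at 0 ug/ml, a change of -0.87 (adjusted p = 0.000156). PTPN11, the phosphatase SHP2 that promotes RAS activation, averaged 25.7 ± 1.97 FPKM at 10 ug/ml and 14.9 ± 1.496 FPKM at 0 ug/ml, a change of 0.75 (adjusted p = 2.97e-06). All 3 kept their call under the 28 alternatives.

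Of 10 tested GTPase activating proteins, 2 were called in B11 at 10 against 0 ug/ml, both higher, with a median change of 0.38. They were RASA1, with 0.36 (adjusted p = 0.0132), and RASAL3, with 0.72 (adjusted p = 0.0189), and each lost its call under 3 of 28 alternatives. The number called among these 10 was between 1 and 4 over the alternatives. Of 13 genes of lipid processing and membrane traffic, 4 were called higher and 1 lower, with a median of 0.11. ICMT, which methylates the prenylated end of RAS proteins, averaged 24.4 ± 3.21 FPKM in B11 at 10 ug/ml and 13.1 ± 1.36 FPKM in B11 at 0 ug/ml, a change of 0.84 (adjusted p = 1.43e-05). GOLGA7, a partner of the RAS palmitoyltransferase, changed by -0.43 (adjusted p = 0.000324), and PDE6D, a carrier of prenylated proteins, by 0.37 (adjusted p = 0.0087). The other calls, named after their values were seen, were RCE1 (0.47) and ABHD17C (0.85).

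Of 6 genes of the SHOC2 phosphatase complex and its scaffolds, 3 were called higher and 0 lower in B11 at 10 against 0 ug/ml, with a median of 0.13. The phosphatase subunit PPP1CC averaged 273 ± 14.3 FPKM in B11 at 10 ug/ml and 186 ± 8.53 FPKM in B11 at 0 ug/ml, a change of 0.55 (adjusted p = 0.000105). PPP1CB changed by 0.52 (adjusted p = 0.00239), and the scaffold SCRIB by 0.35 (adjusted p = 0.0445), a call lost under 14 of 28 alternatives. SHOC2 itself, named here after its values were seen, changed by -0.30 without passing (adjusted p = 0.287) and was higher in B11 than in THP1 at 0 ug/ml by 1.32 (adjusted p = 0.000115).

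Of 15 tested effectors, 0 were called higher and 5 lower in B11 at 10 against 0 ug/ml, with a median of -0.16. RGL2, an exchange factor for RAL that binds active RAS, averaged 86.0 ± 11.9 FPKM in B11 at 10 ug/ml and 288 ± 12.03 FPKM in B11 at 0 ug/ml, a change of -1.74 (adjusted p = 6.13e-09). RASSF1, a RAS-association domain protein, changed by -0.49 (adjusted p = 6.01e-05). Also called, and named after their values were seen, were ARAF (-0.33) and RGL3 (-1.62). RGL2 and RASSF1 kept their calls under the 28 alternatives, and the number of effectors called was between 4 and 6.

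Of 15 tested genes among 29 other RAS family GTPases, 3 were called higher and 1 lower in B11 at 10 against 0 ug/ml, with a median of 0.17. RHEB, an activator of mTORC1, averaged 45.9 ± 4.69 FPKM in B11 at 10 ug/ml and 34.5 ± 3.04 FPKM in B11 at 0 ug/ml, a change of 0.40 (adjusted p = 0.0019). RALA averaged 26.2 ± 3.53 FPKM at 10 ug/ml and 14.5 ± 5.58 FPKM at 0 ug/ml, a change of 0.86 (adjusted p = 0.00366) that lost its call in the fit of the 2 groups alone. RHEBL1 was at 1.09 to 2.45 FPKM at 10 ug/ml and at 0 to 0.0940 FPKM at 0 ug/ml, and was called higher (adjusted p = 0.00329). These levels are near the filter of 1 FPKM. In THP1 RHEBL1 was at 0.252 to 0.729 FPKM at 0 ug/ml, 0.804 to 3.08 at 1 ug/ml and 0.0734 to 1.22 at 10 ug/ml. The gene called lower, named after its value was seen, was DIRAS1 (-0.61).

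Set against the 42.8% of all genes called in this comparison, the called share was 72.7% among exchange factors and adaptors, 50% in the SHOC2 complex, 38.5% in lipid processing, 33.3% among effectors, 26.7% among the other GTPases and 20% among GTPase activating proteins. In THP1 at 10 against 0 ug/ml, limma called 0 genes in each of the 6 lists, beside 1.02% of all genes. With so low a share, 0 calls in lists of this size do not show that these genes were unchanged. At an unadjusted p under 0.05 there were 4 exchange factors and adaptors, 2 effectors, 1 lipid processing gene and 0 in each of the others. Between B11 and THP1 at 0 ug/ml the called share was 81.8% for exchange factors and adaptors, 46.7% for effectors and for the other GTPases, 40% for GTPase activating proteins, 33.3% for the SHOC2 complex and 30.8% for lipid processing, beside 47.1% of all genes. Among these calls, 5 exchange factors and adaptors were higher in B11 and 4 lower, and 6 effectors were higher and 1 lower. For the other GTPases these counts were 3 and 4, and for GTPase activating proteins 1 and 3. They were 1 and 1 for the SHOC2 complex and 1 and 3 for lipid processing. In THP1 at 0 ug/ml GAB2 averaged 9.56 FPKM, RASGRP4 10.7, PTPN11 22.8, ICMT 35.5, PPP1CC 201, RGL2 103, RHEB 68.7 and RALA 20.2. The lists were not tested as sets, and the comparison of B11 with THP1 at 0 ug/ml shares its untreated B11 libraries with that of B11 at 10 and 0 ug/ml.

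**Figure D4:**
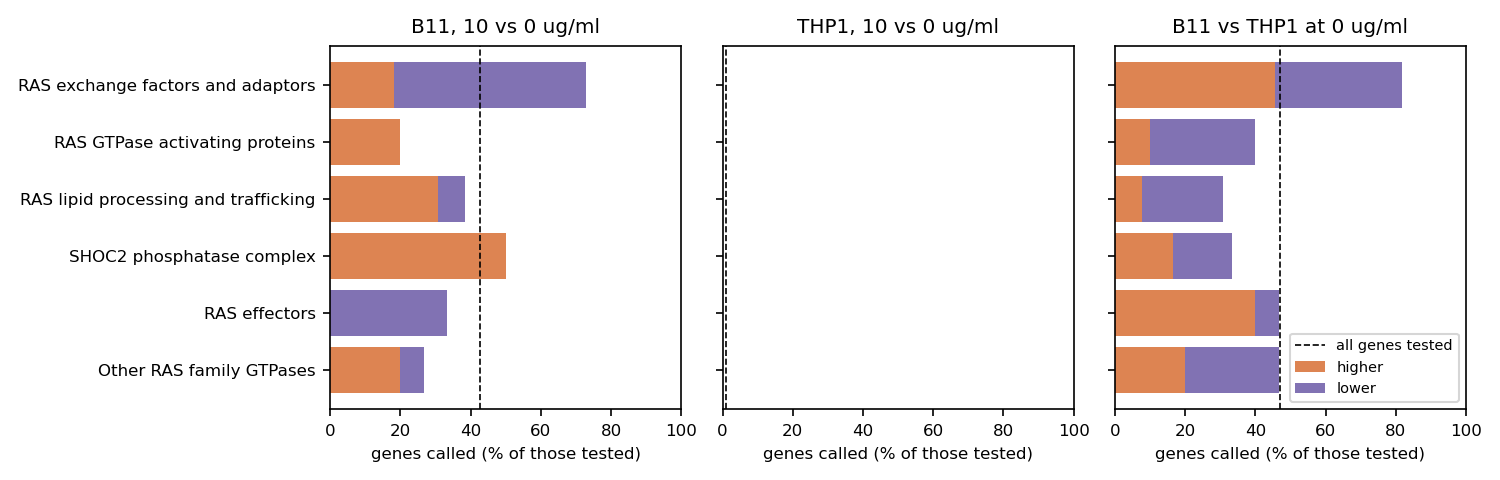
Percent of tested genes of each list called higher (orange) or lower (purple) at an adjusted p under 0.05, for B11 at 10 against 0 ug/ml, THP1 at 10 against 0 ug/ml and B11 against THP1 at 0 ug/ml; the dashed line is the percent of all 17555 genes called. Exchange factors and adaptors lie at 72.7% in the left panel, where all genes are at 42.8%. No bar is drawn in the middle panel because 0 genes of the lists were called there, beside 1.02% of all genes.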

How the data were processed

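Total RNA of 18 plates was prepared with RNeasy kits and made into Illumina libraries, per the labels' protocols; the sources used here do not say whether strand was kept. The authors deposited 1 table of FPKM values, made with HISAT2 alignment to GRCh38 and Cuffnorm per the submitters' processing notes; versions and annotation are not given there. The header names no unit, so FPKM rests on the tool and the values. Columns were matched to samples by title, and GENCODE release 29 named 57047 of the 60658 IDs. Depth was estimated from low values of 420 single-transcript genes, and its range is over the 18 libraries, with no interval computed. The counting errors given for HRAS and RRAS2 follow from this depth and cover counting only.

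The fit took the 17555 genes that reached 1 FPKM in 3 or more of 18 libraries. Values were taken as log2(FPKM + 1), which understates changes of low genes, and the means of the 6 groups were fitted with limma 3.58.1 in R 4.3.3 (variance trend, 12 residual degrees of freedom), for 12 comparisons: 3 dose changes per line, 3 differences between lines and 3 differences of dose changes. Tests were two-sided, adjusted by Benjamini-Hochberg within a comparison, with a threshold of 0.05. Pseudocount, filter, scaling, moderation, libraries, replicate letter and each library were varied in 28 alternatives. The fit was tested on simulated data. The members, the gene lists and the rule for named genes were chosen with earlier results of these data known. That rule named the 5 members, up to 3 called genes of each list with the smallest p in B11 at 10 against 0 ug/ml, and the 3 nearest profiles of each called member. Python 3.11.15 and matplotlib 3.10.9 were used for the plots. Some items, among them coding sequences, are not reported here.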

Additional observations from a re-analysis of the deposited data

Results flagged for a closer look

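The change of NRAS at 10 against 0 ug/ml differed between the lines, by the test of that difference itself: it was 0.40 in B11 and 0.06 in THP1, a difference of 0.35 ± 0.10 (SE, adjusted p = 0.0159 from limma). All 3 B11 libraries at 10 ug/ml were above all 3 at 0 ug/ml, and the THP1 libraries overlapped; libraries did not overlap for 50.6% of all genes in that B11 comparison and for 15.9% in that THP1 comparison. Transcripts of the inducible transgene and of the edited gene share this value, and their parts were not tested.

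The change of RRAS2 at 1 against 0 ug/ml also differed between the lines in the test of the difference: it was 0.62 in B11 and -0.76 in THP1, a difference of 1.38 ± 0.34 (SE, adjusted p = 0.00802 from limma). Neither change passed by itself, and at 10 against 0 ug/ml the difference was 0.28 and did not pass (adjusted p = 0.5915 from limma). The 3 B11 libraries at 1 ug/ml were above those at 0 ug/ml and the 3 THP1 libraries at 1 ug/ml were below those at 0 ug/ml; libraries did not overlap for 47.5% of all genes in that B11 comparison and for 10.5% in that THP1 comparison. In B11 at 1 ug/ml, libraries B and C, in which 1 unnamed ID took 6.51% and 3.76% of the FPKM sum, had the highest RRAS2 values of their group, and without them the difference was 1.13 (adjusted p = 0.0976).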

How the results depend on the processing

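Of 60 member results, 31 kept their direction and call under every alternative run, 19 gained or lost a call under at least 1, and 10 changed direction under at least 1. The changes of direction, 17 values in all, were in results never called. The cause of these changes was not tested.

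3 calls near the threshold were lost most often. NRAS in B11 at 10 against 1 ug/ml lost its call with both other pseudocounts, TPM, no variance trend, the replicate block (adjusted p = 0.07), the compared groups alone and without B11 libraries B and C at 1 ug/ml (0.19). NRAS in B11 against THP1 at 10 ug/ml lost its call with median of ratios, TPM (0.13, adjusted p = 0.273), no variance trend, the replicate block (adjusted p = 0.0595), the compared groups alone and without B and C. RRAS in THP1 at 10 against 0 ug/ml lost its call with both pseudocounts, no filter, median of ratios, no variance trend, the replicate block (adjusted p = 0.0568), the compared groups alone (adjusted p = 0.255) and without B and C.

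In other results, no filter gave NRAS in B11 at 1 against 0 ug/ml a call (0.18, adjusted p = 0.0332) and lost RRAS there (-0.40, adjusted p = 0.0573), RRAS2 between untreated lines (-0.64) and RRAS2 between lines at 1 ug/ml (0.74). A mean of 5 FPKM gave NRAS the same call (0.18, adjusted p = 0.0427) and dropped RRAS2. TPM gave calls at 1 against 0 ug/ml in B11 to NRAS (0.25) and RRAS2 (0.65) and between untreated lines to NRAS (-0.28) and MRAS (-0.58), and lost RRAS at 1 against 0 ug/ml (-0.33). The compared groups alone lost RRAS at 1 against 0 ug/ml (-0.40), RRAS2 between untreated lines (-0.64) and RRAS2 between lines at 1 ug/ml (0.74). The replicate block lost RRAS2 between untreated lines (-0.64, adjusted p = 0.0572). Of 45 same-letter correlations 0 passed 0.1 (-0.0705 to 0.0923), as did 0 of 90 between different letters. Correlations this small do not show whether plates of a letter were handled together. Without B and C, calls were lost by MRAS at 1 against 0 ug/ml (0.67, adjusted p = 0.139), RRAS2 between untreated lines (-0.64, adjusted p = 0.0531), RRAS (0.26) and RRAS2 (0.49) between lines at 1 ug/ml, and the RRAS2 difference of changes at 1 against 0 ug/ml (1.13).

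Direction changed without B and C for HRAS (0.0271) and RRAS2 (0.15) in B11 at 10 against 1 ug/ml, for NRAS in THP1 at 1 against 0 ug/ml with median of ratios (-0.0077) and TPM (-0.0077), and for NRAS between lines at 1 ug/ml with TPM (-0.0221). With 1 library left out, direction changed within these ranges: RRAS2 in B11 at 10 against 1 ug/ml -0.32 to 0.14; in THP1 at 1 against 0 ug/ml NRAS -0.0562 to 0.0598, HRAS -0.0598 to 0.52 and MRAS -0.059 to 0.29; NRAS in THP1 at 10 against 1 ug/ml -0.0039 to 0.11; between lines at 1 ug/ml NRAS -0.03004 to 0.086 and MRAS -0.10 to 0.24; HRAS between lines at 10 ug/ml -0.0281 to 0.27; and the HRAS difference of changes at 1 against 0 ug/ml -0.0403 to 0.57.

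With 1 library left out, calls changed within these ranges: in B11 at 10 against 0 ug/ml RRAS2 0.30 to 0.75 and MRAS 0.49 to 0.84; in B11 at 1 against 0 ug/ml NRAS 0.14 to 0.21, HRAS 0.25 to 0.80, RRAS -0.54 to -0.29, RRAS2 0.50 to 0.75 and MRAS 0.45 to 0.80; NRAS in B11 at 10 against 1 ug/ml 0.21 to 0.24; RRAS in THP1 at 10 against 0 ug/ml -0.70 to -0.50; between untreated lines HRAS -0.84 to -0.22, RRAS2 -0.79 to -0.43 and MRAS -0.62 to -0.26; between lines at 1 ug/ml RRAS 0.40 to 0.59 and RRAS2 0.57 to 0.86; NRAS between lines at 10 ug/ml 0.18 to 0.21; and the differences of changes at 10 against 1 ug/ml, RRAS 0.545 to 0.75 and RRAS2 -1.32 to -0.86.

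The number of genes called moved by over 1.5 times in B11 at 1 against 0 ug/ml (6516, down to 4071), B11 at 10 against 1 ug/ml (2249, down to 611), B11 against THP1 at 1 ug/ml (5231, down to 2704) and the difference of changes at 10 against 1 ug/ml (814, down to 232), each lowest without B and C, which leaves 1 library in that group. In THP1 it was 179 (46 to 217) at 10 against 0 ug/ml, 2 (0 to 23) at 1 against 0 ug/ml and 52 (11 to 112) at 10 against 1 ug/ml. The 2 calls in THP1 at 1 against 0 ug/ml were 1 higher and 1 lower, and with TPM 0 and 1. A count test on recovered reads was not run, since values of genes with several transcripts are not whole steps. Depth limits RRAS2 most, and 1 clone with plates of 1 culture limits all comparisons.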
